A study of Mus musculus with 19 samples.

Results

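The Wnt ligands of the mouse endometrium were followed between estrus and day 3.5 post-coitum (pc), the day before implantation. The 10 ligands described here are Wnt2, Wnt4, Wnt5a, Wnt6, Wnt7a, Wnt7b, Wnt9a, Wnt10a, Wnt11 and Wnt16, chosen by name from the 49089 genes of the deposited count table. The table lists 19 Wnt ligands in all. A CPM (counts scaled to library size) of at least 3 in at least 3 of the 19 libraries were required for testing, which 8 of the 10 ligands and 17222 of all genes met. Wnt2 and Wnt10a were below this minimum and are given by their counts. Wnt6 and Wnt11 were under 3 CPM in every estrus library and met the minimum only through libraries of mated females, so a count over the tested ligands is no evidence of its own that the family changed.

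Endometrium was scraped from the myometrium of C57Bl/6 wild-type females aged 8 to 14 weeks, and each library was made from a pool of females. The CONT group comprised 3 libraries (replicates 1, 2 and 4) of virgin females in estrus, the phase around ovulation. Balb/c males had mated the females of the other 16 libraries, which were taken at day 3.5 pc. INT (4 libraries) followed mating with intact males, while SVX, SVX_VAS and VAS (4 libraries each) followed mating with surgically modified males. For these last groups the labels disagree on which operation the males had, so only the group codes are used. How many females made up a pool is not given in the sources used here, and every p-value below measures the spread between pools. By the paper's methods CONT tissue was taken late in the evening of the day proestrus was detected, and day 3.5 pc tissue at noon. Time of day thus differs between CONT and INT along with stage and mating, and these cannot be told apart.

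Wnt proteins are secreted, lipid-modified signals. Porcn, an acyltransferase of the endoplasmic reticulum, attaches the lipid and Wls, a membrane carrier, brings the ligand to the cell surface, where it binds a Frizzled receptor. With the coreceptors Lrp5 and Lrp6 the signal stabilises beta-catenin, which acts with the transcription factors of the Tcf and Lef1 family, while with Ror1, Ror2 or Ryk it acts without beta-catenin. In the uterus Wnt7a is made by the luminal epithelium and is required for gland formation, Wnt5a is a ligand of the stroma, and Wnt4 is required for the decidual response of the stroma to the embryo.

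The libraries held between 12661266 and 31781270 counts on genes, so that 3 counts, the limit that a count of 0 allows, corresponded to 0.108 to 0.236 CPM. VAS replicates 2 and 3 stood apart from the other libraries. Their log2 CPM correlated with those of the other 14 mated libraries at an r of 0.747 to 0.781 and with each other at 0.984, whereas the other 14 correlated among themselves at 0.920 to 0.993. Several results that rest on them are therefore given with and without them. The other values of VAS include them. Of the markers of the tissue, all 8 of the epithelium and all 9 of the stroma had counts in every library. The 8 epithelial markers summed to 3417 to 4621 CPM in CONT and 543 to 2423 CPM in the mated libraries, and 5 of them were lower in INT than in CONT. The 9 stromal markers summed to 6285 to 6758 CPM in CONT, to 2163 and 2355 CPM in VAS replicates 2 and 3 and to 7467 to 10927 CPM in the other mated libraries. Smooth muscle markers, of which all 6 were detected in every library, summed to 320 to 727 CPM in CONT and 287 to 1283 CPM in the mated libraries. Because whole tissue was sequenced, fewer cells of a type and less RNA per cell cannot be told apart in any value below.

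At estrus Wnt5a was the most abundant ligand, and after mating it remained so while the ligands behind it changed places. Levels of different genes are compared here as CPM per kb of exon. In CONT, Wnt5a was at 35.2 ± 3.30 CPM per kb (SD, n = 3), above every library of Wnt7a (14.5 ± 2.48), Wnt16 (13.6 ± 5.14) and Wnt7b (11.5 ± 1.59), whose ranges overlapped one after the other. Wnt4 followed at 7.99 ± 1.56 CPM per kb, then Wnt9a at 1.67 ± 0.222, each apart from its neighbours in the order. Wnt11 (0.196 ± 0.157) and Wnt6 (0.0859 ± 0.0445) overlapped each other, and Wnt2 and Wnt10a were at the bottom. In INT, Wnt5a was at 39.8 ± 3.95 CPM per kb (SD, n = 4), again apart from the next ligand. The 7 ligands behind it ran from Wnt16 (8.88 ± 3.10) and Wnt7a (7.11 ± 3.15) through Wnt11 (6.66 ± 2.999), Wnt9a (5.27 ± 0.893), Wnt7b (3.15 ± 2.45) and Wnt4 (3.06 ± 1.36) to Wnt6 (1.94 ± 0.972), and each of these overlapped the next. Wnt5a was also first and apart from the next ligand in SVX and SVX_VAS. In VAS it was first by its mean (32.1 ± 10.4 CPM per kb) but overlapped Wnt7a (13.9 ± 12.0), which was second there as in CONT. The sum over all 19 Wnt ligands was 90.0 ± 9.89 CPM per kb in CONT (n = 3) and 83.3 ± 10.3 in INT (n = 4), with overlapping ranges of 82.2 to 101 and 71.1 to 92.7. The 10 ligands made up 89.5% to 94.8% of this sum in every library.

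**Figure D1:**
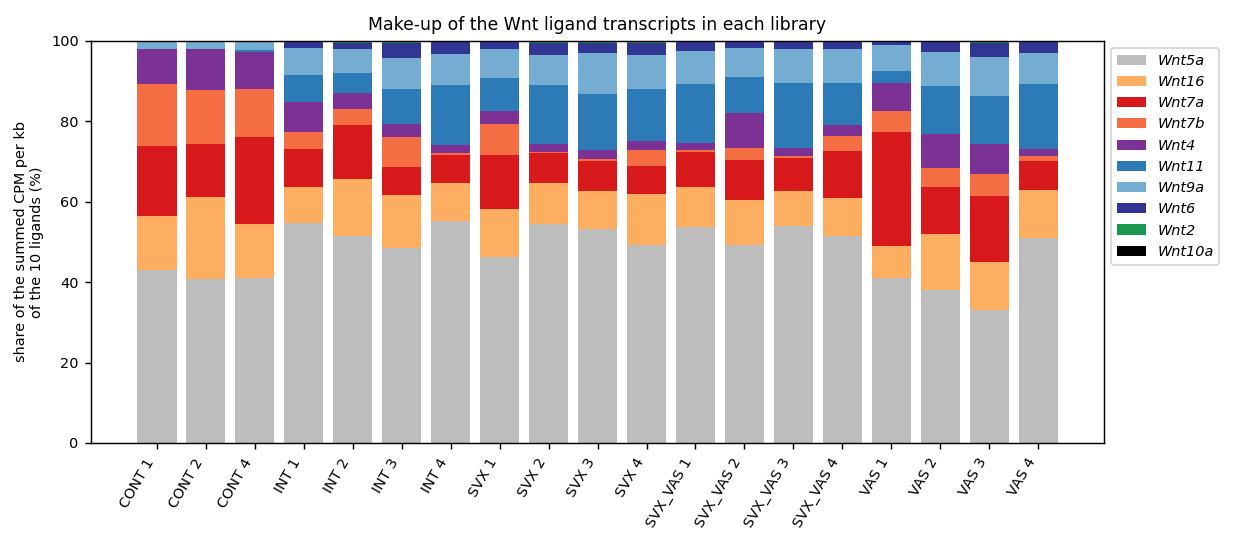
Share of each of the 10 ligands in their summed CPM per kb of exon (vertical axis, %), one bar per library, bars grouped by CONT, INT, SVX, SVX_VAS and VAS. Wnt5a takes the largest share of every bar, and the blue segments of Wnt6, Wnt9a and Wnt11 are thin in the 3 CONT libraries and wide in the mated libraries.

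Of the 8 tested ligands 3, namely Wnt11, Wnt6 and Wnt9a, were higher at day 3.5 pc than at estrus, and Wnt4 was lower. Called means a false discovery rate (FDR) of 0.05 or less in edgeR's quasi-likelihood test with a fold change of at least 1.5 either way. In INT against CONT, 20.9% of all genes tested were called higher and 12.7% lower. There was no overlap between the libraries of CONT and INT in 6 of the 8 tested ligands, 3 higher and 3 lower in INT, as in 31.0% (higher) and 31.3% (lower) of all genes tested. The median log2 fold change (logFC) over the 8 ligands was -0.22, beside -0.01 over all genes tested.

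Wnt11, a ligand that mostly acts without beta-catenin, had the largest change of the 8 tested ligands. The gene (ENSMUSG00000015957.12) lies on the plus strand of GRCm38 at chr7:98835112-98855195. Its level in the CONT libraries was 0.238, 0.682 and 1.52 CPM, from 4, 19 and 20 counts. In the INT libraries it was 18.1, 18.2, 29.8 and 44.2 CPM. Every INT library lay far above the highest CONT library. The fitted change was 35.3-fold (logFC 5.14, standard error (SE) 0.57, 95% interval 3.94 to 6.34, FDR 6.19e-06). In SVX the level was 29.98 to 40.3 CPM, in SVX_VAS 21.96 to 45.6 CPM and in VAS 13.8 to 46.2 CPM, with a logFC against CONT of 5.53, 5.50 and 5.34. Without CONT replicate 4, the CONT library with the most Wnt11, the logFC rose to 5.79 in INT, 6.18 in SVX, 6.15 in SVX_VAS and 5.99 in VAS, and with any other single library left out it was 4.72 or more in INT. Exons of Wnt11 share 364 bases with Gm8398, a processed pseudogene on the opposite strand, which had at most 16 counts in any library.

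Wnt6, known for its part in the epithelial organisation of somites, was close to absent at estrus. It lies at chr1:74771892-74785322 on the plus strand (ENSMUSG00000033227.7). The CONT libraries held 4, 7 and 1 counts of it, or 0.238, 0.251 and 0.0758 CPM. The INT libraries held 2.04, 3.21, 6.96 and 4.83 CPM, all above the highest CONT library. The change was 20.7-fold (logFC 4.37, SE 0.48, 95% interval 3.35 to 5.40, FDR 6.19e-06). The level was 3.80 to 4.44 CPM in SVX, 1.996 to 3.28 CPM in SVX_VAS and 2.37 to 5.83 CPM in VAS, and the logFC against CONT was 4.32, 3.73 and 4.24.

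Wnt9a, a ligand best known from developing joints, rose from a level that was already clear at estrus. It lies at chr11:59306928-59333552 on the plus strand (ENSMUSG00000000126.11). The CONT libraries were at 4.70, 5.96 and 5.99 CPM and the INT libraries at 13.9, 16.9, 21.0 and 18.3 CPM, without overlap. The change was 3.16-fold (logFC 1.66, SE 0.18, 95% interval 1.27 to 2.05, FDR 6.01e-06). In the other mated groups the level was 16.7 to 22.2 CPM (SVX), 13.9 to 21.0 CPM (SVX_VAS) and 17.2 to 23.6 CPM (VAS), and the logFC against CONT was 1.82, 1.71 and 1.88. Among the 16 mated libraries Wnt9a had the smallest spread of the tested ligands, with an SD of 0.23 on the log2 scale beside a median of 0.26 over all genes. Without VAS replicates 2 and 3 that place was Wnt5a's (SD 0.17), and Wnt9a (SD 0.22) was above the median gene (0.20).

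Wnt6, Wnt9a and Wnt11 were called higher in all 4 mated groups and under every alternative run for these comparisons (65 for each gene), with an FDR of at most 0.0120, 0.00294 and 0.00852. All 4 comparisons use the same 3 CONT libraries. Markers of several cell types were also called higher in INT. The 5 endothelial markers summed to 137 to 208 CPM in CONT and 467 to 926 CPM in the mated libraries, and all 5 were called higher in INT. The 4 gland markers summed to 4.16 to 14.3 CPM in CONT and 37.5 to 414 CPM in the mated libraries, and 3 of the 4 were called higher. Of the 9 stromal markers 5 were called higher. The 5 leukocyte markers summed to 143 to 253 CPM in CONT and 350 to 549 CPM in the mated libraries, with 4 called higher and 1 lower in INT. Of the 4 mesothelial markers only Wt1, the most abundant of them in every library, was called higher (sum 74.4 to 98.1 CPM in CONT and 128 to 238 CPM in the mated libraries), and the median logFC of this list was -0.31. Both oviduct markers together were at 8.95 to 18.7 CPM in CONT and 14.9 to 47.1 CPM in the mated libraries. Of these Ovgp1 was called higher and Foxj1 was not, and the median logFC was -0.14. Of the 6 smooth muscle markers Des was called higher. Of 7 genes of the progesterone response, 5 were called higher, Calca being at 0 counts in 1 library. Hand2 is on both this list and the stromal list and is counted as called higher in each. The part of these markers in the rise of the 3 ligands was not tested.

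The promoters of the ligands that rose together are shown here for their sequence features, from the RefSeq annotation of GRCm38.p6. Each window is the 250 bases directly upstream of an annotated transcript start on the plus strand. The motifs searched on both strands were the TATA box TATAAA, the GC box GGGCGG, the Tcf and Lef1 core CTTTGA, the estrogen receptor site core GGTCA and its paired form (the full estrogen response element), the progesterone and glucocorticoid receptor forms TGTTCT and ACANNNTGT, and the Gli core GACCACCCA. GGTCA is contained in the paired form. Capitals mark GGGCGG or its reverse complement in Wnt6 (chr1:74771642-74771891) and Wnt9a (chr11:59306680-59306929), and TATAAA and the reverse complement of CTTTGA in Wnt11 (chr7:98834862-98835111).
Wnt6: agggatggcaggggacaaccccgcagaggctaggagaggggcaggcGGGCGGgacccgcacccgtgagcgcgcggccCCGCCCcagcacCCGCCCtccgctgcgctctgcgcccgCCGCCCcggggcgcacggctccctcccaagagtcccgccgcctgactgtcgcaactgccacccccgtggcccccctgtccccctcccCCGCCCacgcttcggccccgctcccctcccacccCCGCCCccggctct
Wnt9a: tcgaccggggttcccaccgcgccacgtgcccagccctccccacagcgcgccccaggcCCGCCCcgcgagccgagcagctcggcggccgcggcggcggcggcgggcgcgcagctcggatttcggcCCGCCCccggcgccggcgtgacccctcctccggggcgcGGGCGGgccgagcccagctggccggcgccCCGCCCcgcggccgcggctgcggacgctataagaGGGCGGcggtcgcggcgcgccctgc
Wnt11: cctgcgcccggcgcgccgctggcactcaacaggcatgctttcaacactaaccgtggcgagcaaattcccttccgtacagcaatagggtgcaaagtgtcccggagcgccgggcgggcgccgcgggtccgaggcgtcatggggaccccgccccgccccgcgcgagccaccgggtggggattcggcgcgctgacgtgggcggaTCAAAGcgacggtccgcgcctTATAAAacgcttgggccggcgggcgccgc

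The Wnt6 window had 79.6% G and C and 6 GC boxes, and none of the other 7 motifs. The Wnt9a window had 84.4% G and C, 5 GC boxes and 1 GGTCA, and its last 2 bases lie in the first exon of the gene as annotated in GENCODE. The Wnt11 window had 70.8% G and C, 4 GC boxes not marked above, a TATAAA that begins 29 bases upstream of the start and a reversed CTTTGA that begins 50 bases upstream. RefSeq gives a second start of Wnt11, whose window (chr7:98838595-98838844) had 56.8% G and C and none of the 8 motifs. Of 32851 windows of the same length, 32.7% held GGGCGG, 12.4% held TATAAA and 13.8% held CTTTGA on either strand. A match describes these letters only and is no evidence of a site in use.

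**Figure D2:**
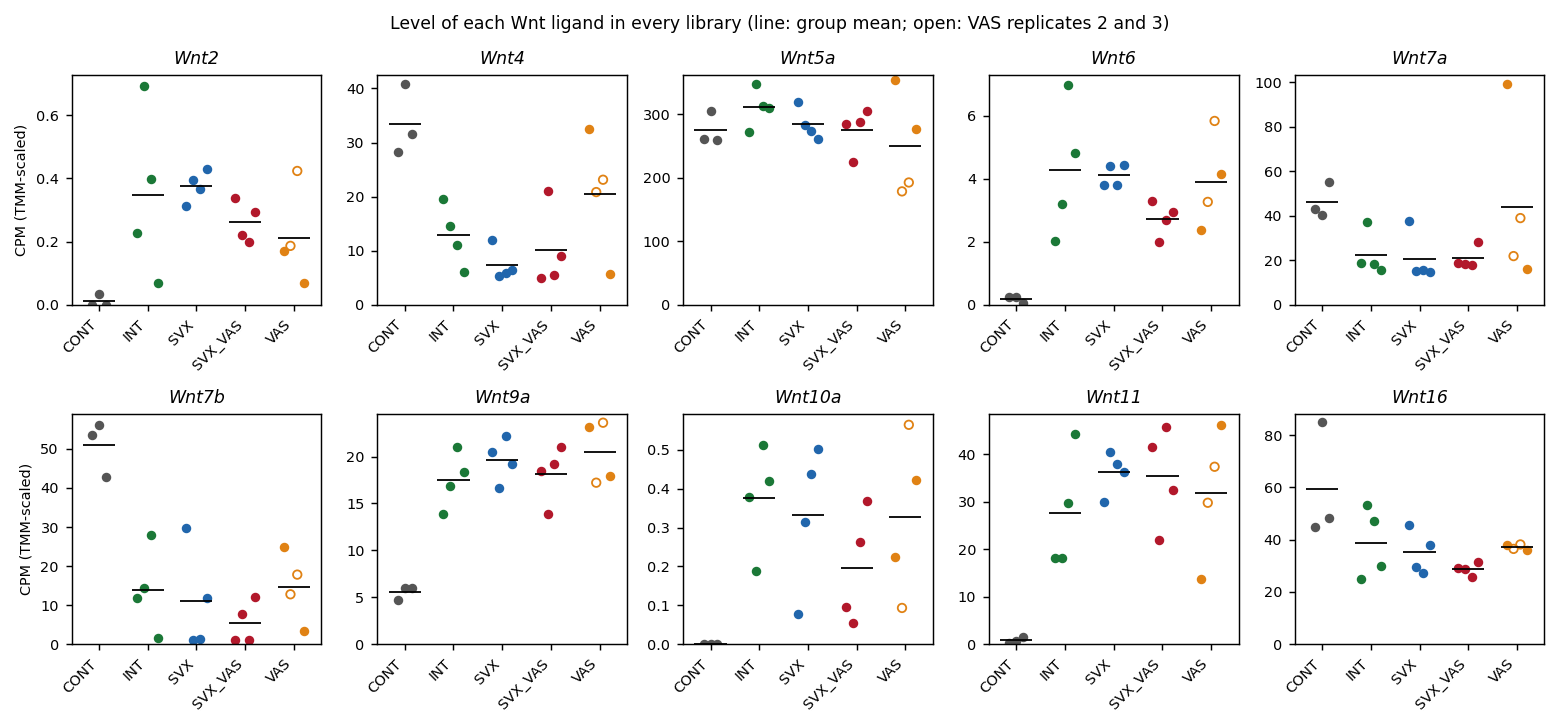
CPM of each ligand in every library (vertical axis, linear, its range set per gene), with CONT, INT, SVX, SVX_VAS and VAS along the horizontal axis. Points are libraries, lines are group means and open points are VAS replicates 2 and 3. The CONT points of Wnt6, Wnt9a and Wnt11 lie below all 16 mated points, and those of Wnt7b above all of them.

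Wnt4, which is needed for decidualization, was lower after mating. The gene (ENSMUSG00000036856.4) lies at chr4:137277489-137299726 on the plus strand. The CONT libraries were at 28.2, 40.8 and 31.5 CPM and the INT libraries at 19.7, 14.5, 11.1 and 6.16 CPM, without overlap. The change was 2.61-fold (logFC -1.38, SE 0.55, 95% interval -2.54 to -0.23, FDR 0.0462). This call is close to the threshold and was lost with upper quartile scaling (FDR 0.0598), with almost no filter on low counts (FDR 0.0636), without VAS replicates 2 and 3 (logFC -1.36, FDR 0.0504), and without any single library of CONT or INT other than INT replicate 1 (FDR 0.0667 to 0.126). Wnt4 was called lower in SVX (5.43 to 12.0 CPM, logFC -2.17, FDR 0.00325) and in SVX_VAS (4.93 to 21.0 CPM, logFC -1.72, FDR 0.0143, and logFC -2.37 without SVX_VAS replicate 2). In VAS the libraries were at 32.6, 20.9, 23.1 and 5.65 CPM and overlapped those of CONT (logFC -0.70, 95% interval -1.85 to 0.44, FDR 0.277). With single libraries left out, the logFC in VAS was -1.01 to -0.39.

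Wnt7b, an epithelial ligand, was lower in every mated library than in any CONT library and differed widely among the mated libraries. It lies at chr15:85535439-85581821 on the minus strand (ENSMUSG00000022382.14). The CONT libraries were at 53.5, 56.2 and 42.9 CPM. The INT libraries were at 11.9, 14.4, 27.8 and 1.54 CPM, the SVX libraries at 29.8, 1.02, 1.39 and 11.8 CPM, the SVX_VAS libraries at 1.11, 7.82, 1.12 and 12.1 CPM and the VAS libraries at 24.97, 12.8, 17.8 and 3.32 CPM. Although the groups did not overlap, the change in INT was not called (logFC -1.87, SE 1.05, 95% interval -4.10 to 0.37, FDR 0.159). It was called with limma-voom (logFC -2.38, FDR 0.0180) and with only these groups in the fit (FDR 0.0499). With any single library of CONT or INT left out, the logFC in INT was -2.50 to -1.50, without a call. Against CONT, Wnt7b was called lower in SVX_VAS (logFC -3.21, SE 1.10, FDR 0.0216), a call lost without SVX_VAS replicate 1 (FDR 0.0571) or 3 (FDR 0.0579). Its logFC was -3.92 without SVX_VAS replicate 4 and -4.07 with limma-voom (FDR 0.00520). The change was not called in SVX (logFC -2.21, FDR 0.0882) or in VAS (logFC -1.79, FDR 0.157) in this fit. It was called with limma-voom (logFC -3.40, FDR 0.0103 in SVX and logFC -2.02, FDR 0.0177 in VAS) and with only these groups in the fit (FDR 0.0374 and 0.0449). In SVX it was also called without SVX replicate 1 (logFC -3.42, FDR 0.0201). Exons of Wnt7b share 126 bases with AU022754, an antisense gene with 1 to 244 counts per library. Whether strand was used in counting is not stated in the sources used here, so reads in that stretch cannot be assigned to either gene.

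Wnt7a, the ligand of the luminal epithelium, was at 42.9, 40.3 and 55.0 CPM in CONT. It lies at chr6:91363981-91411363 on the minus strand (ENSMUSG00000030093.7). In INT it was at 18.9, 37.4, 18.4 and 15.5 CPM, below CONT in all 4 libraries, and the change was not called (logFC -1.03, SE 0.51, 95% interval -2.10 to 0.04, FDR 0.105). The logFC was -1.15 in SVX (FDR 0.0633) and -1.14 in SVX_VAS (FDR 0.0676), again without overlap with CONT and without a call. These calls depended on the settings. In INT Wnt7a was called lower with only these groups in the fit (FDR 0.0244) and without INT replicate 2 (logFC -1.39, FDR 0.0440). In SVX it was called with limma-voom (FDR 0.0400), DESeq2 (FDR 0.0465), only these groups (FDR 0.0125) and without SVX replicate 1 (logFC -1.60, FDR 0.0159), and in SVX_VAS with limma-voom (FDR 0.0457) and only these groups (FDR 0.00130). In VAS the libraries were at 99.2, 21.9, 39.0 and 16.3 CPM, so that VAS replicate 1 was the highest of all 19 libraries. The logFC there was -0.06 (95% interval -1.13 to 1.01), -0.84 without VAS replicate 1 (FDR 0.0842), 0.36 without VAS replicates 2 and 3, and 0.10 with upper quartile scaling.

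Wnt16, a ligand known from bone, was at 44.7, 85.2 and 48.2 CPM in CONT. It lies at chr6:22288227-22298522 on the plus strand (ENSMUSG00000029671.15). In INT it was at 24.8, 53.1, 46.999 and 29.96 CPM, which overlapped CONT (logFC -0.62, SE 0.25, 95% interval -1.15 to -0.08, FDR 0.0541). It was called lower in SVX (logFC -0.76, FDR 0.0173), SVX_VAS (logFC -1.05, FDR 0.00244) and VAS (logFC -0.68, FDR 0.0310). CONT replicate 2 carried much of this difference. Without it the logFC was -0.26 in INT (FDR 0.425), -0.40 in SVX (FDR 0.186) and -0.32 in VAS (FDR 0.288), and only the call in SVX_VAS was kept, with an FDR of at most 0.0282 with any single library left out. Without VAS replicates 2 and 3 the call in VAS was lost (logFC -0.65, FDR 0.103). It was also lost with upper quartile scaling (logFC -0.47, FDR 0.119), with only these groups (FDR 0.0510) and without VAS replicate 2, 3 or 4 (FDR 0.0643, 0.0583 and 0.0554). A block on the replicate number ended it as well (logFC -0.63, FDR 0.0612). The call in SVX was lost with upper quartile scaling (FDR 0.0573) and without SVX replicate 3 (FDR 0.0538). In INT, Wnt16 was called lower with limma-voom (FDR 0.0491), with DESeq2 (FDR 0.0438) and without CONT replicate 1 or 4 or INT replicate 2 or 3 (FDR 0.0171 to 0.0438).

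The Wnt16 window is shown beside the others because its make-up differs. It spans chr6:22287977-22288226, with capitals on GGTCA or its reverse complement.
Wnt16: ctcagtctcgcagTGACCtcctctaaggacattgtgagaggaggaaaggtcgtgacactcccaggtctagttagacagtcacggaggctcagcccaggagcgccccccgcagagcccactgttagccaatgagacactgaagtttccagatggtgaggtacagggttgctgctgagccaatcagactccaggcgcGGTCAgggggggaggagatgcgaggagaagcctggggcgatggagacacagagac

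This window had 59.2% G and C, no GC box and 2 copies of GGTCA, a motif that 35.2% of all windows held. GC boxes were not particular to the ligands that rose. The windows of Wnt4, Wnt7a and Wnt2, not shown, held 8, 6 and 1 of them. Of these windows 146, 10 and 140 bases lie within the gene as annotated in GENCODE, so part of each is not upstream sequence there. Wnt7a and Wnt2 are on the minus strand. No window was found for Wnt5a, Wnt7b and Wnt10a.

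Summed over their lists, the epithelial markers and the genes of the estrogen response were also lower in every mated library than in any CONT library, while single genes overlapped. Ltf, for example, was at 2157 CPM in INT replicate 1 and 2301 CPM in SVX_VAS replicate 2, above the 1875 CPM of CONT replicate 1. The 7 estrogen-response genes summed to 11491 to 14973 CPM in CONT and to 192 to 10838 CPM in the mated libraries, and 1 of them (Muc1) was called lower in INT. Sprr2d of this list had 0 counts in 7 libraries. The part of these markers in the levels of Wnt4, Wnt7a and Wnt7b was not tested.

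Wnt5a, the main stromal ligand, did not differ between CONT (262, 305 and 259 CPM) and INT (273, 348, 314 and 309 CPM) beyond the spread between libraries. It lies at chr14:28504750-28527447 on the plus strand (ENSMUSG00000021994.14). The logFC was 0.18 (SE 0.19, 95% interval -0.22 to 0.58, FDR 0.477). Against CONT it was 0.05 in SVX (95% interval -0.35 to 0.45), 0.00 in SVX_VAS (-0.40 to 0.40) and -0.14 in VAS (-0.53 to 0.26). VAS replicates 2 and 3 were at 179 and 193 CPM, the lowest of all libraries, and without them the logFC in VAS was 0.22. With upper quartile scaling it was 0.05. As a share of the summed CPM per kb of all 19 Wnt ligands, Wnt5a took 39.2 ± 1.37% in CONT (SD, n = 3) and 47.9 ± 2.65% in INT (SD, n = 4). Wnt11 went from 0.219 ± 0.183% to 8.10 ± 3.90% and Wnt9a from 1.85 ± 0.194% to 6.33 ± 0.777%, while Wnt7b went from 12.9 ± 1.78% to 3.67 ± 2.66%. For Wnt5a the share was 46.5 ± 3.55% in SVX and 47.4 ± 1.87% in SVX_VAS. In VAS it was 37.5 ± 6.70%, below the mean of CONT (SD, n = 4 for each group). Exons of Wnt5a share 358 bases with the antisense gene Gm2670, which had 73 to 676 counts.

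Wnt2 and Wnt10a were near the limit of detection. Wnt2, known from the placenta and developing lung, had 0, 1 and 0 counts in CONT and 3, 11, 7 and 1 in INT. The ratio of the summed counts, scaled to library size, was 20.9 with an exact 95% counting interval of 3.38 to 863. The counts tied at 1 in CONT replicate 2 and INT replicate 4, both below the limit of 3 counts. In SVX, SVX_VAS and VAS it had 20, 18 and 17 counts in all. Wnt10a, known from teeth and hair follicles, had no count in any CONT library and 5, 3, 9 and 6 counts in INT. It was at least 7.28-fold higher in INT against the floor of 3 counts over the group (two-sided p = 0.0571 in an exact permutation test, which cannot give less with 3 against 4 libraries). In SVX, SVX_VAS and VAS it was at least 6.53-fold, 3.43-fold and 6.21-fold higher than in CONT. Wnt10a (chr1:74791516-74804179) begins 6193 bases after the end of Wnt6 on the same strand. Wnt2 lies at chr6:17988940-18030585 on the minus strand. Intervals and floors cover counting error only.

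**Figure D3:**
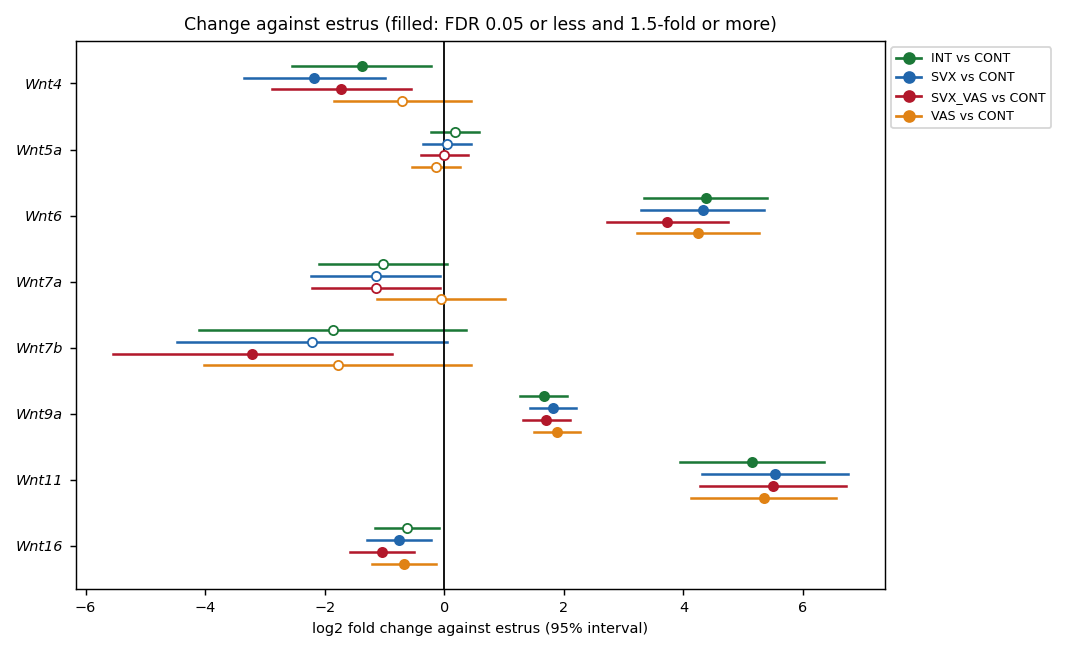
Fitted log2 fold change against CONT (horizontal axis) with its 95% interval for the 8 tested ligands, one line for each of INT, SVX, SVX_VAS and VAS. Filled points are called. The points of Wnt6, Wnt9a and Wnt11 are filled and lie right of 0 in all 4 groups, those of Wnt5a lie next to 0, and the intervals of Wnt7b are the widest.

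Counted by group, 3 ligands were called higher and 2 lower in SVX (all genes tested, 23.1% and 18.4%), 3 higher and 3 lower in SVX_VAS (22.1% and 16.4%) and 3 higher and 1 lower in VAS (23.2% and 17.2%). Libraries did not overlap those of CONT in 6 ligands in SVX (35.2% of all genes higher and 35.7% lower), 7 in SVX_VAS (33.5% and 34.0%) and 5 in VAS (26.7% and 28.3%). Without VAS replicates 2 and 3 the number called was 3 in INT, 5 in SVX, 6 in SVX_VAS and 3 in VAS. The shares of all genes given above belong to the reported fit and are no background for these numbers. With upper quartile scaling the median logFC of all genes rose from -0.01 to 0.12 in INT, from -0.01 to 0.16 in SVX, from -0.02 to 0.13 in SVX_VAS and from -0.07 to 0.13 in VAS, and the called ligands kept their direction.

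Whether the male's surgery moved a ligand was asked by setting SVX, SVX_VAS and VAS against INT. No ligand was called in any of these 3 comparisons with edgeR, DESeq2 or limma-voom, and none had an unadjusted p under 0.05 in the reported edgeR fit. Of all genes tested, 0% were called in each, and an unadjusted p under 0.05 was found for 4.35% in SVX, 1.97% in SVX_VAS and 10.6% in VAS. The size of change that these data allow differs by ligand. For Wnt5a the 95% interval of the logFC was -0.50 to 0.24 in SVX, -0.54 to 0.20 in SVX_VAS and -0.68 to 0.06 in VAS. In VAS the logFC was -0.31, and 0.025 without VAS replicates 2 and 3. For Wnt9a it was -0.18 to 0.50, -0.29 to 0.39 and -0.12 to 0.56. For Wnt11 it was -0.44 to 1.22, -0.47 to 1.19 and -0.63 to 1.03. Wnt7b had the widest intervals, -2.44 to 1.75, -3.48 to 0.80 and -1.99 to 2.16.

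The lowest p-values among these were those of Wnt7a in VAS (logFC 0.97, 95% interval -0.04 to 1.97, unadjusted p 0.0586, FDR 0.452) and Wnt6 in SVX_VAS (logFC -0.64, 95% interval -1.38 to 0.09, unadjusted p 0.0814). With single libraries left out, the logFC of Wnt6 in SVX_VAS was -0.87 to -0.29. For Wnt7a in VAS the unadjusted p was 0.0410 with upper quartile scaling (FDR 0.368), 0.0408 in DESeq2 (FDR 0.405) and 0.0219 without VAS replicates 2 and 3 (FDR 0.9999), but 0.1395 with limma-voom (logFC 0.70, FDR 0.360) and 0.137 with only these groups in the fit (FDR 0.820). Without VAS replicate 1, the library with the most Wnt7a, the logFC was 0.19 (unadjusted p 0.620 in edgeR). Without VAS replicate 1, Wnt5a in VAS had an FDR of 0.0475 in edgeR but not the fold of 1.5 (logFC -0.53). For Wnt4 the logFC against INT was -0.79 in SVX, -0.34 in SVX_VAS and 0.68 in VAS, with intervals of -1.89 to 0.31, -1.43 to 0.75 and -0.40 to 1.76. In SVX_VAS it was -0.98 without SVX_VAS replicate 2 and -0.062 without INT replicate 1. With single libraries left out it was -1.12 to -0.51 in SVX and 0.37 to 0.99 in VAS. In the test of any difference among the 4 mated groups the lowest unadjusted p was 0.0616, that of Wnt4, followed by 0.0765 for Wnt7a (FDR 0.635 for both), where 7.04% of all genes had an unadjusted p under 0.05 and 0% were called. Wnt2 and Wnt10a did not reach the smallest p of 0.0286 that 4 against 4 libraries allow in any comparison with INT, with exact permutation p (two-sided) of 0.686, 0.8 and 0.486 for Wnt2 and 0.686, 0.143 and 0.657 for Wnt10a in SVX, SVX_VAS and VAS.

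Within the mated groups the ligands varied from library to library, and Wnt4 and Wnt11 varied in opposite order. In each of the 4 groups the library with the most Wnt4 had the least Wnt11, and in 3 of 4 the library with the least Wnt4 had the most Wnt11. The libraries with the most Wnt4 were INT replicate 1 (19.7 CPM, with 18.1 CPM of Wnt11), SVX replicate 1 (12.0 and 29.98 CPM), SVX_VAS replicate 2 (21.0 and 21.96 CPM) and VAS replicate 1 (32.6 and 13.8 CPM). These 4 libraries also had the highest sum of epithelial markers in their group, at 2423, 1115, 2095 and 2120 CPM. They had the highest sum of the estrogen-response genes as well, at 9922, 593, 10838 and 2716 CPM, where the lowest sum in the mated libraries was 192 CPM. The part of either list in this order was not tested.

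Per kb of exon, Wnt4 exceeded Wnt11 by 20.5 to 117 times in the CONT libraries. In the mated libraries the ratio was 0.117 to 2.33, and it was above 1 only in INT replicate 1 (1.07) and VAS replicate 1 (2.33). The correlation of log2 CPM between Wnt4 and Wnt11 was -0.957 over the 14 mated libraries other than VAS replicates 2 and 3 and -0.805 over all 16. It is given as a description, since the libraries share groups and scaling. VAS replicates 2 and 3 were at 20.9 and 23.1 CPM of Wnt4 and 29.8 and 37.3 CPM of Wnt11.

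**Figure D4:**
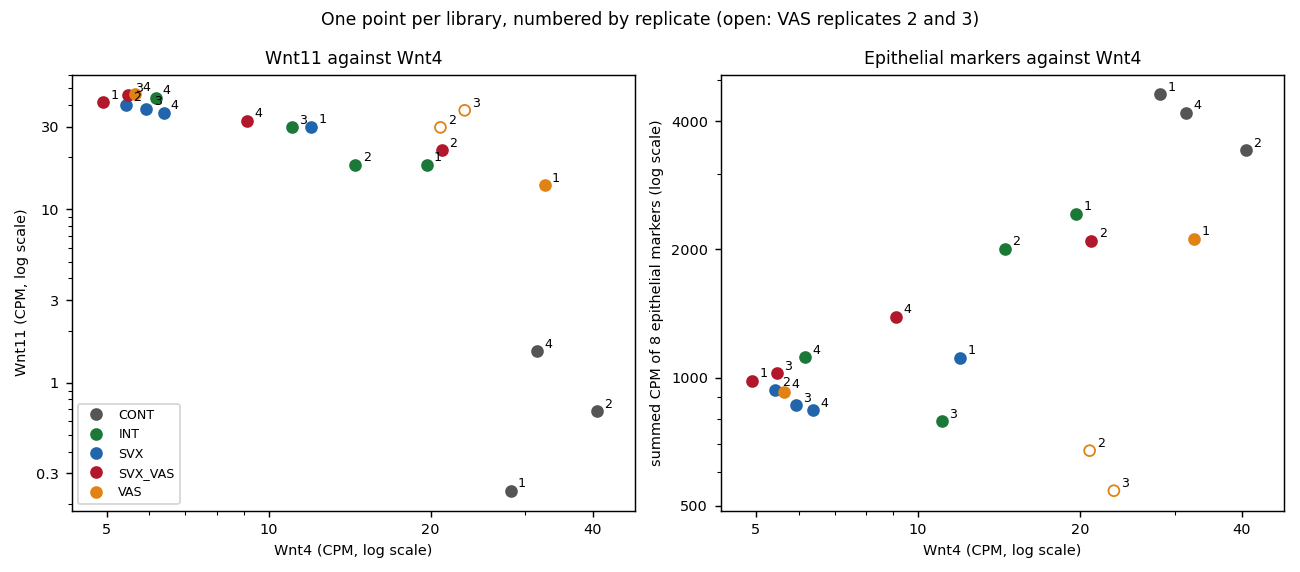
Left, Wnt11 against Wnt4 (CPM, both axes log scaled), one point per library, numbered by replicate, colours giving the group and open points VAS replicates 2 and 3. Right, the summed CPM of 8 epithelial markers against Wnt4 on log axes. In the left panel mated libraries run from much Wnt11 and little Wnt4 to the reverse, with the 3 CONT libraries at the lower right. In the right panel VAS replicates 2 and 3 lie below the other libraries with as much Wnt4.

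Wnt7b was the most variable ligand among the mated libraries, with an SD of 1.77 on the log2 scale, which placed it at percentile 95.1 of all genes tested. Without VAS replicates 2 and 3 the SD was 1.83 (percentile 99.3). Wnt4 (SD 0.91, percentile 87.5) and Wnt7a (0.74, percentile 85.2) followed, and Wnt5a (0.27, percentile 52.0) was close to the median gene. Without these libraries the SD was 0.87 for Wnt4 (percentile 96.8), 0.76 for Wnt7a (percentile 96.0) and 0.17 for Wnt5a (percentile 40.8). Replicates of SVX and SVX_VAS fell at very different levels of Wnt7b, with SVX replicates 2 and 3 at 1.02 and 1.39 CPM and SVX replicate 1 at 29.8 CPM.

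The other genes of the pathway were counted in lists written with earlier results of these data known. For secretion, Porcn was lower in INT (47.2 ± 10.1 CPM in CONT, n = 3, and 31.2 ± 8.21 CPM in INT, n = 4, logFC -0.60, FDR 0.00874), although this call was lost under 7 of the alternatives. Without VAS replicates 2 and 3 it missed only the fold (logFC -0.57, FDR 0.0112). Wls was at 327 ± 20.5 CPM in CONT and 250 ± 22.1 CPM in INT (logFC -0.39, FDR 0.0584). Porcn was also called lower in SVX (logFC -0.80, FDR 0.000881) and SVX_VAS (logFC -0.62, FDR 0.00589) but not in VAS (logFC -0.36, FDR 0.0792). Wls was called lower in VAS (logFC -0.69, FDR 0.00178), a call lost without VAS replicates 2 and 3, where the logFC of -0.36 missed the fold (FDR 0.0213). It was not called in SVX (logFC -0.48, FDR 0.0179) or SVX_VAS (logFC -0.38, FDR 0.0564). Of the 9 other Wnt ligands only Wnt2b and Wnt5b were tested, and neither was called in INT. Wnt2b there missed only the fold (logFC 0.56, FDR 0.0238), and it was called higher in SVX (logFC 0.59, FDR 0.0153) and SVX_VAS (logFC 0.71, FDR 0.00499). In VAS it was not called (logFC 0.10, FDR 0.645, and logFC 0.37, FDR 0.105 without VAS replicates 2 and 3). These counts are read beside the 20.9% and 12.7% of all genes that were called higher and lower.

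Of 16 receptors and coreceptors 15 were tested, 6 were called higher and 1 lower in INT, with a median logFC of 0.11. With single libraries of CONT or INT left out, 5 or 6 were called higher and 1 or 2 lower. The largest rise was that of Ror1, a receptor tyrosine kinase that binds Wnt5a, from 9.74 ± 2.23 to 31.6 ± 10.1 CPM (logFC 1.69, SE 0.25, FDR 6.41e-05). The others that rose were Fzd1, Fzd2, Fzd3, Fzd4 and Fzd7. Fzd5, another Frizzled receptor, fell from 66.7 ± 4.95 to 37.5 ± 4.85 CPM (logFC -0.83, SE 0.11, FDR 1.68e-05). In SVX 6 of this list were called higher and 3 lower, and in SVX_VAS and in VAS 6 higher and 1 lower. The gene called lower in SVX_VAS was Fzd10 (logFC -1.42, FDR 0.0290).

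Of 18 secreted or membrane inhibitors 12 were tested, 6 were called higher and 1 lower in INT, with a median logFC of 1.57. Sfrp2, which binds Wnt ligands outside the cell, rose from 4.63 ± 2.78 to 57.5 ± 18.5 CPM (logFC 3.60, SE 0.38, FDR 4.61e-06). Apcdd1, Dkk3, Frzb, Sfrp4 and Znrf3 also rose. Rnf43, a ubiquitin ligase that removes Frizzled receptors from the membrane, fell from 58.4 ± 3.86 to 35.5 ± 6.66 CPM (logFC -0.72, SE 0.24, FDR 0.0233). This call was lost without CONT replicate 1, without CONT replicate 4 and without INT replicate 3. In SVX 7 inhibitors were called higher and 1 lower, in SVX_VAS 6 and 1, and in VAS 8 and 0. Rnf43 was not called in VAS (logFC -0.33, FDR 0.255). Of the 7 R-spondins and their Lgr receptors 5 were tested and 1 was called in INT, Rspo3, an amplifier of Wnt signalling, which rose from 2.41 ± 1.31 to 7.28 ± 2.16 CPM (logFC 1.59, SE 0.49, FDR 0.0135). This call was lost without CONT replicate 1. It was also lost with INT replicates 1 and 2 both left out, where 1 other gene of the list was called lower. Rspo3 was also called higher in SVX, SVX_VAS and VAS. Lgr5 was called higher in SVX (logFC 2.20, FDR 0.0319) and VAS (logFC 2.32, FDR 0.0255). Lgr6 was called lower only in SVX (logFC -4.68, FDR 0.0122).

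Of 9 targets and mediators of the beta-catenin branch 8 were tested, 4 were called higher in INT and none lower, with a median logFC of 0.66. Lef1, a DNA-binding partner of beta-catenin, rose from 3.996 ± 1.69 to 90.7 ± 36.7 CPM (logFC 4.48, SE 0.45, FDR 3.32e-06). Nkd1, Nkd2 and Tcf7l1 rose too. Axin2, the most used readout of beta-catenin signalling, was at 54.8 ± 5.25 CPM in CONT and 76.0 ± 4.33 CPM in INT (logFC 0.47, SE 0.22, FDR 0.0878). It was not called in SVX (logFC 0.37, FDR 0.158) or SVX_VAS (logFC 0.38, FDR 0.157), and in INT without VAS replicates 2 and 3 it missed only the fold (logFC 0.49, FDR 0.0413). In VAS it was called higher (logFC 0.73, FDR 0.00946), and also without VAS replicates 2 and 3 (logFC 0.98, FDR 0.00288). Ctnnb1, which encodes beta-catenin, was at 1447 ± 155 CPM in CONT (n = 3) and 855 ± 177 CPM in INT (n = 4, logFC -0.76, FDR 0.104), a change called without VAS replicates 2 and 3 (logFC -0.74, FDR 0.00122). It was called lower in SVX (logFC -1.07, FDR 0.0216), SVX_VAS (logFC -0.94, FDR 0.0427) and VAS (logFC -1.48, FDR 0.00305), the last at a logFC of -0.82 without VAS replicates 2 and 3 (FDR 0.00345). No gene of these lists was called in SVX, SVX_VAS or VAS against INT, where 0% of all genes were.

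**Figure D5:**
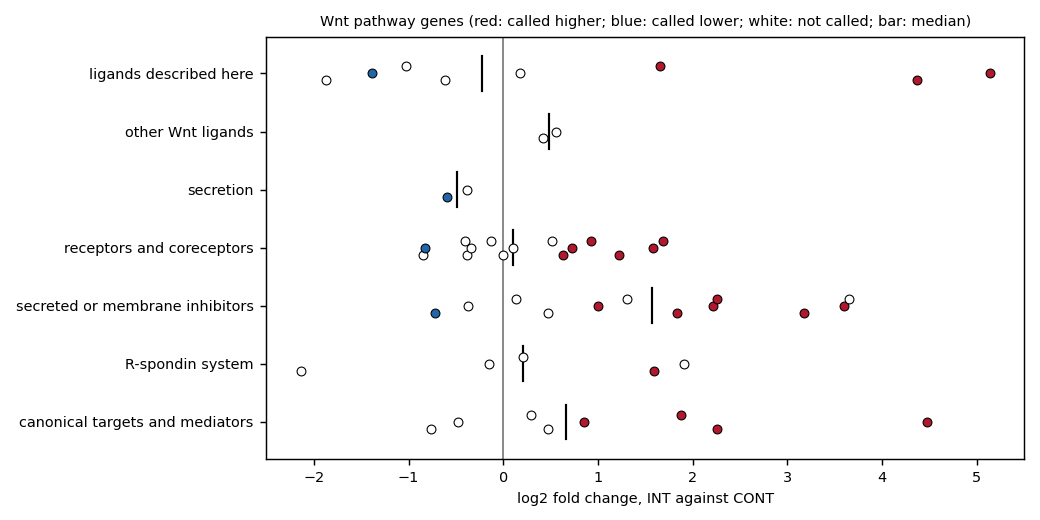
Log2 fold change of INT against CONT (horizontal axis) for every tested gene of each Wnt pathway list, one row per list, with the 8 tested ligands on top. Red points are called higher, blue lower and white not called, and the bar is the list's median. The inhibitors have the largest median, 1.57, and Lef1 lies farthest right among the targets.

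The genes most like each ligand over the 19 libraries, by Pearson's r of log2 CPM, were Tiam1, Cd276 and Flrt2 for Wnt4 (0.962 to 0.968), Pald1, Cspg4 and Armcx4 for Wnt6 (0.978 to 0.979), Stra6, Pomt2 and Cacna1c for Wnt9a (0.976 to 0.977) and Pvt1, 9530059O14Rik and Ttbk2 for Wnt11 (0.990 to 0.992). For Wnt7a they were Cox10, Msx2 and L1cam (0.932 to 0.940), for Wnt7b Pcsk6, Trpm6 and Gjb2 (0.923 to 0.931), for Wnt5a Gm13446, Pdap1 and Rraga (0.925 to 0.933) and for Wnt16 Dll4, Pla2g7 and Moxd1 (0.7999 to 0.837). The difference between estrus and mated libraries enters every one of these values. Over the 14 mated libraries other than VAS replicates 2 and 3, Tiam1 was again the gene most like Wnt4 (0.967), and none of the other genes named here was again among the 3 most like its ligand, so that 1 of 24 was shared.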

How the data were processed

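Endometrial RNA of 19 pooled samples was sequenced by the authors as stranded total RNA from both ends. Adapters were removed with AdapterRemoval version 2, STAR aligned the reads to GRCm38 and featureCounts assigned them to genes. The deposited values are raw counts, used here without change. The strand setting of the counting is not given in the sources used here. Gene positions and exon lengths are those of the deposited table.

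Counts were scaled with TMM factors and tested with edgeR 4.0.16 (R 4.3.3) in 1 quasi-likelihood fit of all 19 libraries without a replicate block, after requiring 3 CPM in 3 libraries, with a Benjamini-Hochberg FDR of 0.05 and a fold of 1.5. CPM are relative to each library's counts on tested genes, with a prior count of 2 for log2 values. DESeq2 1.42.0, limma-voom (limma 3.58.1), other scalings and filters, fewer libraries and a replicate block were alternatives. The fit was also run on simulated data, and no outcome of that run is given here. Symbols were found for 48349 genes, and exon overlaps and promoters come from the GENCODE and RefSeq annotations of GRCm38.

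The members and lists were chosen with earlier results of these data known. Named genes were all 10 ligands, the called gene with the largest rise and fall of each pathway list, Wls, Axin2, Lef1 and the 3 genes most like each tested ligand. Fzd1, Fzd2, Fzd3, Fzd4, Fzd7, Fzd10, Lgr5, Lgr6, Apcdd1, Dkk3, Frzb, Sfrp4, Znrf3, Nkd1, Nkd2, Tcf7l1, Wnt2b, Wnt5b, Ctnnb1, Muc1, Ltf, Wt1, Ovgp1, Foxj1, Des, Calca, Hand2 and Sprr2d were named after their values were seen. Replicate numbers did not pair the samples (same-number correlations of -0.688 to 0.583 over 36 pairs).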

Additional observations from a re-analysis of the deposited data

Results flagged for a closer look

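Each of the 10 ligands was searched in each group of 4 libraries for a library far from the other 3. Of 40 groups searched 2 were found, the number that chance gives at 1 in 20, and both concern Wnt7a. SVX replicate 1 was at 37.5 CPM of Wnt7a, where the other SVX libraries were at 14.8 to 15.5 CPM. SVX_VAS replicate 4 was at 28.1 CPM, where the other SVX_VAS libraries were at 17.9 to 18.98 CPM. SVX replicate 1 was also the SVX library with the most Wnt4 (12.0 CPM) and Wnt7b (29.8 CPM), and SVX_VAS replicate 4 the SVX_VAS library with the most Wnt7b (12.1 CPM).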

How the results depend on the processing

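Of 928 alternatives to the 56 fold changes, 844 kept the direction and the side of the threshold, 22 lost a call, 21 gained one and 41 changed sign, none of them a called change in the reported fit. Numbers of ligands called stayed within 1.5 times the reported number in every alternative. Against CONT they were 3 to 6 in INT, 4 to 7 in SVX, 5 to 7 in SVX_VAS and 3 to 5 in VAS. With the replicate block they were 4, 5, 6 and 3. The shares of all genes called in the alternatives are not given here, so these numbers have no background beside them. The block changed the call of Wnt16 in VAS (FDR 0.0612). For 6 of the 19 libraries, the mean correlation with libraries of other groups was highest for their own replicate number. Sign changes without a cause tested were, in logFC against INT, Wnt6 in SVX with the replicate block (0.046) or limma-voom (0.026), Wnt7b in VAS with the replicate block (-0.033), Wnt16 in VAS with upper quartile scaling (0.013) and Wnt5a in VAS without VAS replicates 2 and 3 (0.025). Against CONT they were Wnt5a in SVX_VAS with almost no filter (-0.024), Wnt5a in VAS with upper quartile scaling (0.048) or without VAS replicates 2 and 3 (0.22), and Wnt7a in VAS under the same settings (0.10 and 0.36). Over the fits that omit 1 library each, the logFC against INT was -0.28 to 0.31 for Wnt6, -0.57 to 0.24 for Wnt7a, -1.55 to 0.28 for Wnt7b and -0.30 to 0.050 for Wnt16 in SVX, -0.29 to 0.25 for Wnt7a and -0.048 to 0.16 for Wnt9a in SVX_VAS, and -0.39 to 0.25 for Wnt6, -0.29 to 0.72 for Wnt7b, -0.030 to 0.53 for Wnt11 and -0.22 to 0.13 for Wnt16 in VAS. Against CONT it was -0.013 to 0.13, -0.050 to 0.089 and -0.35 to 0.023 for Wnt5a in SVX, SVX_VAS and VAS and -0.84 to 0.21 for Wnt7a in VAS. In INT against CONT, the secretion genes called went from 1 to 0 with upper quartile scaling, with only these groups, without VAS replicates 2 and 3 and without INT replicates 1 and 2 (0 to 1 over the fits that omit 1 library), the other Wnt ligands from 0 to 1 with upper quartile scaling and without INT replicates 1 and 2 (0 to 1), and the R-spondin system from 1 to 2 without VAS replicates 2 and 3 (0 to 2). Both ways of leaving out library pairs were chosen after seeing the data. Depth limits Wnt2, Wnt10a and the estrus values of Wnt6.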
